A study of Homo sapiens with 6 samples.

Results

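Of the 60960 features in the deposited gene table, 9 encode the pericellular protease system examined here, chosen by gene symbol, with no threshold on a measured value but with earlier results of these data known: 4 matrix metalloproteinases (MMP1, MMP2, MMP7, MMP14), 3 tissue inhibitors of metalloproteinases (TIMP1, TIMP2, TIMP3), the urokinase-type plasminogen activator PLAU and its receptor PLAUR. They were measured by poly(A) RNA sequencing in NCI-H1975, an established line of human non-small cell lung cancer. The 2 groups held 3 libraries each, labelled siNC for a control small interfering RNA and siGFPT2 for one against GFPT2, an enzyme of the hexosamine pathway. RNA extraction is described in the labels for cells under almonertinib, EGF and an EGFR knockdown, yet the treatment labels read only siNC or siGFPT2. The sources used here state neither the time after transfection nor the siRNA sequences. No label ties the replicates to separate cultures, so every p-value reflects sample-to-sample spread alone, and that spread may be technical.

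Matrix metalloproteinases are zinc proteases that cut collagens and other matrix proteins. MMP1 is the interstitial collagenase, MMP2 a gelatinase, MMP7 a small secreted protease of epithelial cells, and MMP14 (MT1-MMP) a membrane-anchored enzyme that activates pro-MMP2 in a complex with TIMP2. TIMPs bind the active site of these enzymes; TIMP1 inhibits MMP14 poorly, and TIMP3 is held in the matrix. Urokinase, bound to its receptor on the cell surface, turns plasminogen into plasmin. In lung cancer this system is known for its part in invasion.

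The targeted gene did not separate the labels. In the siNC libraries GFPT2 averaged 9.24 ± 0.925 FPKM (SD, n = 3), and in the siGFPT2 libraries 8.41 ± 0.734, with overlapping groups (p = 0.4 in a two-sided exact permutation test that cannot go below 0.1). FPKM are fragments per kilobase of gene length scaled to the counted fragments of the library, so levels of different genes can be set side by side. Such comparisons carry the shift with gene length between libraries that is given below. Depth lay between 21899321 and 27234880 counted fragments per library. Epithelial markers of the line were abundant, with KRT19 at 542 FPKM in siNC, and the lung lineage factor NKX2-1 stood at 30.3 FPKM. The differentiated lung genes NAPSA, SFTPB and SFTPC were all under 1 FPKM. siNC replicate 3 and siGFPT2 replicate 2 stood apart from the other 4 libraries. EGFR, also a marker of the line, was at 11.2 and 14.0 FPKM in these 2 libraries and at 26.2 to 30.4 in the other 4, and the epithelial cadherin CDH1 was at 43.5 and 50.2 against 76.1 to 84.3. The remaining markers of the line went the other way. KRT19 was at 677 and 590 FPKM against 443 to 499, and KRT18 at 334 and 281 against 182 to 210. KRT8 was at 302 and 274 against 204 to 232, and EPCAM at 199 and 182 against 136 to 160. Over the 2579 tested features shorter than 2000 bases, the median deviation of these 2 libraries was 0.25 and 0.17 on the log2 scale, against -0.06 to -0.12 in the other 4. Over the 5744 features of 5000 bases or more it was -0.23 and -0.13, against 0.04 to 0.13.

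The 9 genes split into 5 that were clearly expressed and 4 that were near the floor of detection. TIMP1 was the most abundant member, followed by PLAU, then PLAUR and TIMP2 at like levels, then MMP14. MMP1, MMP2, MMP7 and TIMP3 stayed under 1 FPKM in all 6 libraries. Rank 1 was held by TIMP1, rank 2 by PLAU, rank 5 by MMP14 and rank 6 by MMP1 in every library. PLAUR exceeded TIMP2 in 3 of 6 libraries (PLAUR to TIMP2 ratio 0.868 to 1.48), so their order was not fixed. MMP2, TIMP3 and MMP7 also overlapped one another.

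**Figure D1:**
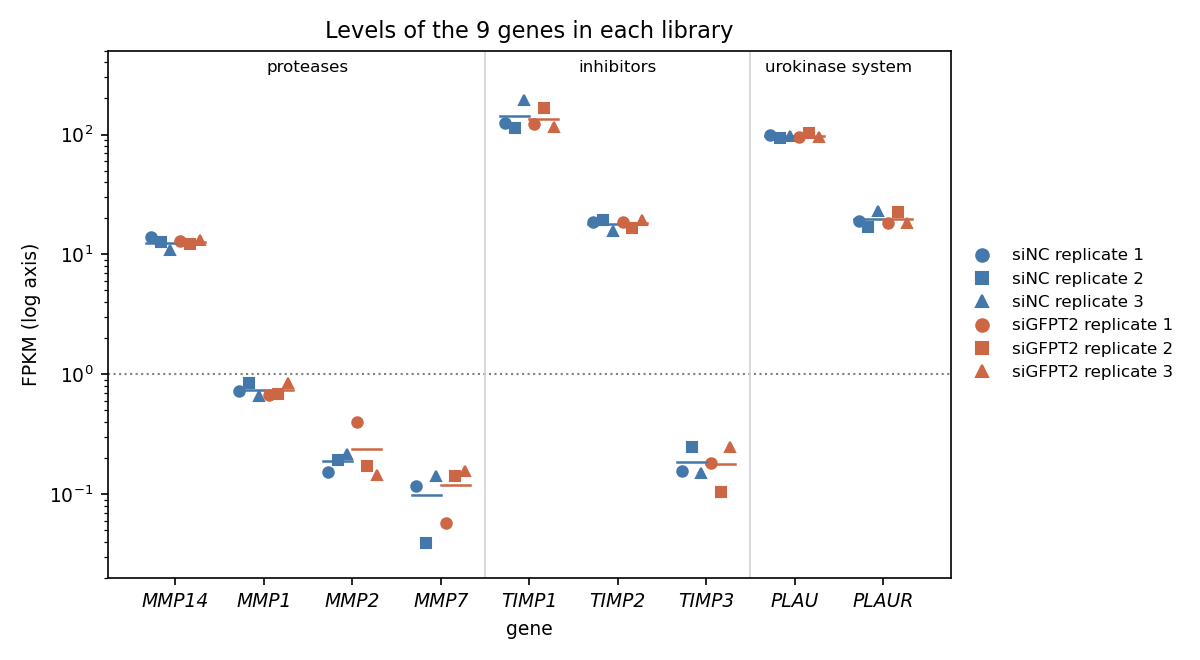
FPKM of each gene (log axis) in the 6 libraries, with colour for the label, shape for the replicate number, short lines for group means and a dotted line at 1 FPKM. TIMP1 and PLAU lie near or above 100 FPKM, PLAUR, TIMP2 and MMP14 between 10.9 and 23.0, and the remaining 4 genes under 1.

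Sequence upstream of the start was found in RefSeq (GRCh38.p14) for 6 of the 9 genes: MMP7, MMP14, TIMP1, TIMP3, PLAU and PLAUR. Of these, 4 windows of 250 bases before the RefSeq start are printed. GENCODE 29, whose gene coordinates are given below, places some starts elsewhere. By it the PLAUR window lies wholly within the gene, that of TIMP1 lies partly within it, and those of MMP7 and TIMP3 reach a few bases into it. TIMP1 and PLAUR are the expressed members that were highest in siNC replicate 3 and siGFPT2 replicate 2, and MMP7 and TIMP3 are low members with unlike promoters. Capitals mark matches, on either strand, to the AP-1 motif TGANTCA, the GC box GGGCGG or the TATA box TATAAA.
TIMP1, chrX:47582186-47582435, plus strand: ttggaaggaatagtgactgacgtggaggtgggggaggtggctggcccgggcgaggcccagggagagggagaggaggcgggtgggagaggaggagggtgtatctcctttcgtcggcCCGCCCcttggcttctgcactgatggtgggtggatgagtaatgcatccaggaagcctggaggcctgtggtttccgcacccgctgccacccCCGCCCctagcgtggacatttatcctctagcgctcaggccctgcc
PLAUR, chr19:43670170-43670419, minus strand: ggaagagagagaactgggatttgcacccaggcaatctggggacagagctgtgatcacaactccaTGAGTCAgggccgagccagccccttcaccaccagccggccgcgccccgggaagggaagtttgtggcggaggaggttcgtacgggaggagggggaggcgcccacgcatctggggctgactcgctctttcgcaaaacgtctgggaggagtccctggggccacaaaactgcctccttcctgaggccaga
MMP7, chr11:102530748-102530997, minus strand: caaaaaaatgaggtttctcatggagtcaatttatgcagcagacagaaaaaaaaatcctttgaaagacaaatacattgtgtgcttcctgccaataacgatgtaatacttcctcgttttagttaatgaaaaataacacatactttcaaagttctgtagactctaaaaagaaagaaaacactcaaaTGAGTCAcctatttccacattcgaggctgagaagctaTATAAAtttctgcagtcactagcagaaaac
TIMP3, chr22:32801455-32801704, plus strand: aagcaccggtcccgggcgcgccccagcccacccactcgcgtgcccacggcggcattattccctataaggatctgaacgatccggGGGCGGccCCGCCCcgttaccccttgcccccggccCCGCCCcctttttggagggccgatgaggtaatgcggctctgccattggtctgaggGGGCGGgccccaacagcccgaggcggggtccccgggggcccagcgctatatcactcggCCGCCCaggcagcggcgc

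The AP-1 motif was matched in the windows of PLAUR, 186 bases before the RefSeq start, and MMP7, 67 bases before it. Among all 35116 RefSeq windows of this length, 6.6% hold it. MMP7 also held a TATA box 30 bases before the start, a motif found in 10.7% of windows. TIMP1 had 2 GC boxes and TIMP3 had 5, where 42.6% of all windows have at least 1. The TIMP3 window contained 26 CpG dinucleotides and that of MMP7 contained 3, against a median of 11. Both genes were nonetheless under 0.3 FPKM in each library. The downstream of the PLAU windows had 3 GC boxes and 24 CpG, and MMP14 had 1 GC box. A match describes letters in a window and does not show that a factor binds there.

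MMP14 was the main protease among the 4 chosen. MMP14 (ENSG00000157227; chromosome 14, 22836557 to 22849027, plus strand, GENCODE 29 on GRCh38) stood at 13.8, 12.7 and 10.9 FPKM in siNC replicates 1, 2 and 3 and at 12.99, 12.2 and 13.1 in siGFPT2, from 1236 to 1532 fragments. The groups overlapped, with the lowest value in siNC replicate 3. Its log2 fold change was 0.03 ± 0.12 (SE; 95% interval -0.25 to 0.32), with an adjusted p of 0.9999 by limma. Without siNC replicate 3 and siGFPT2 replicate 2 it was -0.03 (-0.23 to 0.18).

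MMP1, MMP2 and MMP7 were below the filter on low values and had no part in the main test. MMP1 (ENSG00000196611; chromosome 11, 102789920 to 102798160, minus strand) rested on 42 to 51 fragments and was listed at 0.727, 0.851 and 0.656 FPKM under siNC, and at 0.675, 0.684 and 0.839 under siGFPT2. All 6 exact Poisson intervals of those counts, which cover counting error only, overlapped. MMP7 (ENSG00000137673; chromosome 11, 102520508 to 102530753, minus strand) rested on 6, 2 and 8 fragments in siNC and 3, 9 and 8 in siGFPT2, or 0.039 to 0.155 FPKM. Its groups overlapped, and in a limma fit with no filter its log2 fold change was 0.14 (-0.63 to 0.91).

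MMP2 was the one low gene with a library that stood out. MMP2 (ENSG00000087245; chromosome 16, 55389700 to 55506691, plus strand) was at 0.154, 0.194 and 0.217 FPKM in siNC, and at 0.402, 0.172 and 0.144 in siGFPT2 replicates 1, 2 and 3. The 43 fragments of siGFPT2 replicate 1 (95% Poisson interval 31.1 to 57.9) compare with 15 to 25 in the other 5 libraries, whose highest interval reached 36.9. The siGFPT2 mean was 0.239 FPKM against 0.188 in siNC with this library, and 0.158 without it, so the direction turned on 1 library. COL3A1, a fibroblast collagen, was covered by 135 fragments in that library and by 0 to 3 in the others, and the macrophage receptor CD163 by 75 against 0 to 3. The matrix gene DCN had 30 fragments there and 6 to 13 elsewhere, POSTN 7 against 0 elsewhere, and the lysozyme gene LYZ 8 against 0 or 1. The fibroblast collagens COL1A1 and COL1A2 were also highest there, at 8.23 FPKM against 5.74 to 7.04 and 3.04 against 2.17 to 2.78. LUM, PDGFRA and PDGFRB of the same list were not highest there. The fibroblast surface gene THY1 was low in each siGFPT2 library, at 0.396, 0.436 and 0.542 FPKM against 0.688 to 0.819 in siNC. The monocyte receptor CD14 had its lowest level in siGFPT2 replicate 1, at 1.87 against 2.003 to 3.196. The neutrophil elastase gene ELANE had 0 fragments in that library and 0 to 2 elsewhere. Of the 9 fibroblast markers 7 were under 1 FPKM in all libraries, and the summed list spanned 9.50 to 11.5 FPKM in siNC and 9.62 to 13.6 in siGFPT2. Of the 8 macrophage and neutrophil markers 6 were under 1 FPKM, with sums of 7.80 to 8.49 and 7.89 to 8.49, and the leukocyte gene PTPRC did not exceed 0.013 FPKM. All 5 endothelial markers were under 1 FPKM, with sums of 0.671 to 0.839 and 0.666 to 0.999. PECAM1, VWF and KDR were highest in siGFPT2 replicate 1, at 0.199, 0.148 and 0.548 FPKM, and CDH5 and TEK were not. The part of these transcripts in the MMP2 level was not tested. In bulk RNA, fewer cells of a type and less RNA per cell cannot be told apart.

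**Figure D2:**
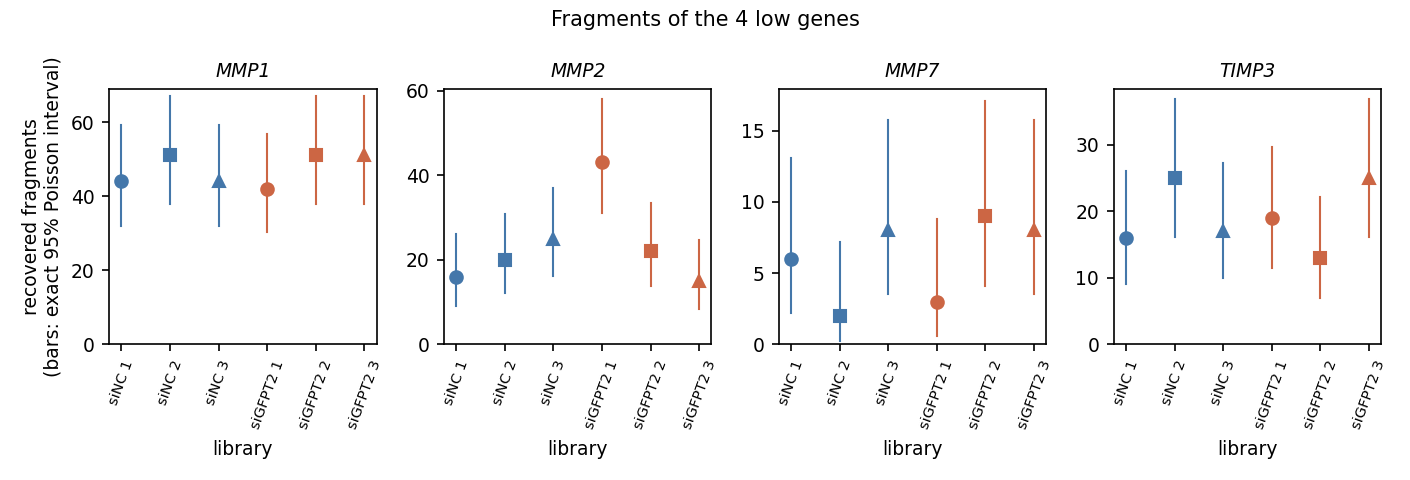
Recovered fragments of MMP1, MMP2, MMP7 and TIMP3 in each library, with exact 95% Poisson intervals that cover counting error only. The 43 MMP2 fragments of siGFPT2 replicate 1 lie above the 15 to 25 of the other libraries, although its interval overlaps the highest of theirs, and the intervals of the other 3 genes overlap between libraries.

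TIMP1 was the most abundant inhibitor and also the least steady of the expressed members. TIMP1 (ENSG00000102265; chromosome X, 47582313 to 47586789, plus strand, within SYN1 on the opposite strand, with 0 shared exon bases) was at 125, 113 and 193 FPKM in siNC replicates 1, 2 and 3, and at 123, 166 and 116 in siGFPT2. The 2 highest values were in siNC replicate 3 and siGFPT2 replicate 2, 1 under each label, and the groups overlapped. Its SD over the 6 libraries was 0.31 on the log2 scale, where the median tested feature had 0.21. The log2 fold change was -0.07 ± 0.24 (SE; -0.64 to 0.50; limma adjusted p = 0.9999), an interval of 0.643-fold to 1.41-fold. Without those 2 libraries it was 0.0034 (-0.20 to 0.20).

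TIMP2 varied less, and in the opposite sense. TIMP2 (ENSG00000035862; chromosome 17, 78852977 to 78925387, minus strand), which both inhibits MMP14 and joins it in activating pro-MMP2, stood at 18.6, 19.4 and 15.5 FPKM in siNC and at 18.7, 16.6 and 19.4 in siGFPT2. Its lowest values were in the same 2 libraries in which TIMP1 was highest. The log2 fold change was 0.04 (-0.27 to 0.34; limma adjusted p = 0.9999). TIMP3 (ENSG00000100234; chromosome 22, 32801701 to 32863043, plus strand, within SYN3 on the opposite strand), the matrix-bound inhibitor, rested on 13 to 25 fragments, with 0.157, 0.248 and 0.151 FPKM under siNC and 0.182, 0.104 and 0.245 under siGFPT2, and its groups overlapped.

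PLAU was nearly constant between libraries. PLAU (ENSG00000122861; chromosome 10, 73909177 to 73917497, plus strand) rested on 6057 to 8239 fragments per library. Its levels were 99.9, 93.8 and 98.0 FPKM under siNC, and 95.4, 103 and 95.5 under siGFPT2, with overlapping groups. The highest library exceeded the lowest by a factor of 1.09. Its SD over the 6 libraries was 0.048 on the log2 scale, and only 1.2% of the 12896 tested features had a lower one. The log2 fold change was 0.01 (-0.22 to 0.24; limma adjusted p = 0.9999), an interval of 0.856-fold to 1.18-fold. PLAU shares 916 exon bases, 31.1% of its exon length, with C10orf55 on the opposite strand. C10orf55 was listed at 0.390 to 0.594 FPKM, and whether strand was kept is not stated, so the division of reads between the 2 genes is uncertain.

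PLAUR was high in the same libraries as TIMP1, by a smaller amount. PLAUR (ENSG00000011422; chromosome 19, 43646095 to 43670547, minus strand), the cell-surface receptor that holds urokinase, was at 19.1, 16.8 and 23.0 FPKM in siNC and at 18.4, 22.7 and 18.4 in siGFPT2. Its highest values were again in siNC replicate 3 and siGFPT2 replicate 2. The log2 fold change was 0.02 (-0.35 to 0.39; limma adjusted p = 0.9999).

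In siNC replicate 3, TIMP1 deviated from its own mean over the 6 libraries by 0.50 on the log2 scale and PLAUR by 0.23, while MMP14 deviated by -0.20 and TIMP2 by -0.21. In siGFPT2 replicate 2 the deviations were 0.29, 0.21, -0.05 and -0.11 in the same order. PLAU deviated by 0.01 and 0.07. The gene lengths behind the FPKM values were 1446 bases for TIMP1, 4457 for PLAUR, 2949 for PLAU, 4623 for MMP14 and 5633 for TIMP2. TIMP1, which is under 2000 bases, and TIMP2, which is over 5000, deviated in the direction of the median feature of their length class in these 2 libraries. PLAUR and MMP14, with nearly equal lengths behind their FPKM, deviated in opposite directions. These are merged exon or fitted lengths, not those of the transcripts expressed. The part of gene length in these deviations was not tested. A further limma fit took the slope of deviation on length in each library, itself drawn from these data, as a covariate. Its log2 fold change was -0.07 (-0.18 to 0.04) for TIMP1 and 0.02 (-0.12 to 0.15) for PLAUR, narrower intervals than without it. The slope was -0.0814 in siNC replicate 3, -0.0555 in siGFPT2 replicate 2 and 0.0271 to 0.0479 elsewhere. The covariate thus takes up any difference of these 2 libraries, so the narrowing is no test of gene length. The covariate fit called 0 members.

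**Figure D3:**
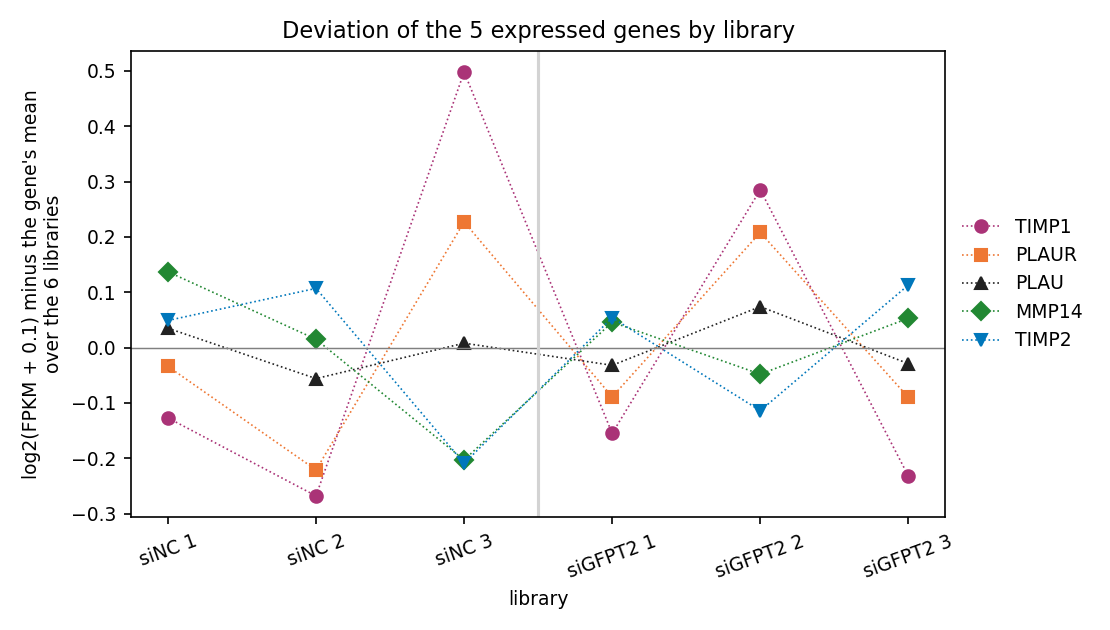
Deviation of log2(FPKM + 0.1) from each gene's mean over the 6 libraries, for the 5 expressed genes; dotted lines join the points of 1 gene and imply no order. TIMP1 and PLAUR are highest, and MMP14 and TIMP2 lowest, in siNC 3 and siGFPT2 2, while PLAU stays within -0.06 and 0.07.

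The profiles most like that of TIMP1 over the 6 libraries, among 10679 other protein-coding features, were those of POP7, THOC6 and HCFC1R1. Their centred log2 levels lay at a root mean square distance of 0.020 to 0.023 from TIMP1, where the median feature lay at 0.34. As the nearest of all they lie under the median by choice, as do those of PLAUR below. Their lengths are 911, 1860 and 1428 bases, all under 2000 like that of TIMP1, and shared regulation was not tested. POP7, a subunit of RNase P, was at 98.1, 89.5 and 147 FPKM under siNC and at 96.7, 128 and 90.3 under siGFPT2, with the same 2 libraries highest. For PLAUR the nearest were RCE1, a protease that processes prenylated proteins, UBXN11 and LYPLA2, at distances of 0.014 to 0.019, with a median of 0.23. These have 3001, 4704 and 2021 bases.

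The question of the design was whether the labels differ, and for these genes no difference was found. Of the 5 members tested by limma, 0 passed an adjusted p of 0.05, 0 passed the same level unadjusted and 0 had groups that did not overlap. The background gave 0% of 12896 features called, 0.651% at an unadjusted p under 0.05 and 3.53% with groups that did not overlap (2.16% with siGFPT2 higher and 1.36% with it lower). The share of 0.651% is below the level of 0.05 itself, so this limma fit ran conservative. Its lack of calls does not show that the labels are alike. Of the fold changes 4 were above 0 and 1 below, beside 7922 and 4974 over all features tested, with medians of 0.02 and 0.03. Limma-voom on the recovered reads also called 0 features, with 60 at an unadjusted p under 0.05 and 0 of them members. Without siNC replicate 3 and siGFPT2 replicate 2, limma called 0 features (0%), had 751 (5.82%) at an unadjusted p under 0.05, and counted 0 members among them.

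**Figure D4:**
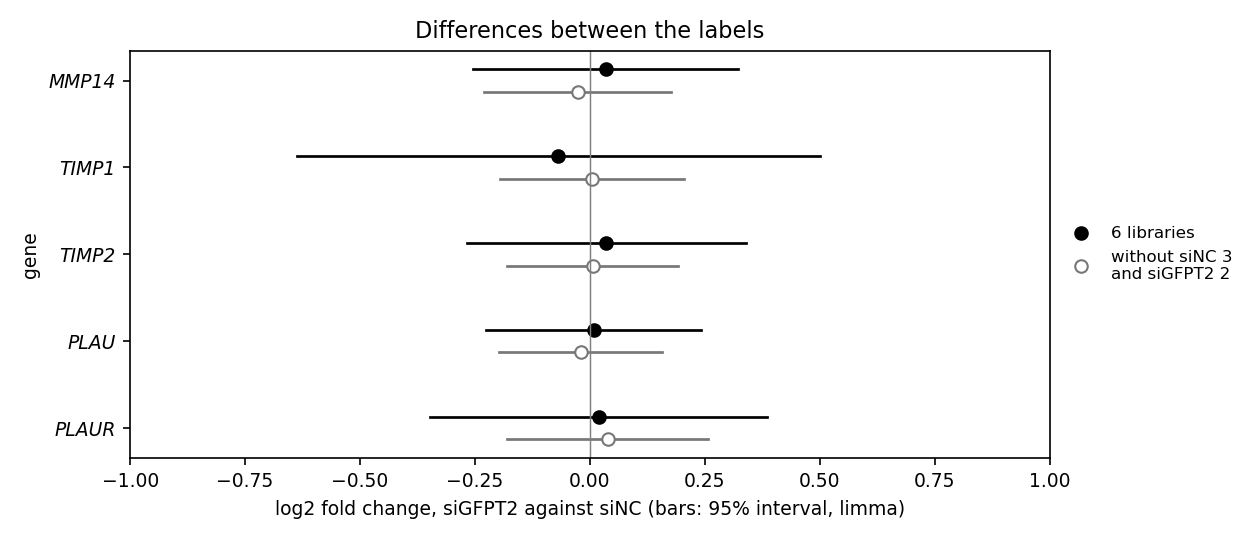
Log2 fold change of siGFPT2 against siNC with its 95% interval from limma, for the 5 tested genes, with all 6 libraries (filled) and without siNC replicate 3 and siGFPT2 replicate 2 (open). All intervals include 0, and that of TIMP1 narrows from -0.64 to 0.50 to -0.20 to 0.20 without those libraries.

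The balance of proteases and inhibitors varied more between libraries than between labels. The FPKM of the 4 MMPs summed to 11.9 to 14.8 per library, of which MMP14 made up 91.5% to 93.3%. Those of the 3 TIMPs summed to 133 to 209, of which TIMP1 made up 85.3% to 92.5%. The ratio of the sums was 0.103, 0.104 and 0.057 in siNC replicates 1, 2 and 3 and 0.0998, 0.0719 and 0.104 in siGFPT2. It was 0.088 ± 0.027 (SD, n = 3) in siNC and 0.092 ± 0.018 in siGFPT2, and the groups overlapped. The 2 low values were those of siNC replicate 3 and siGFPT2 replicate 2, the libraries in which short features were raised and long ones lowered. TIMP1 has 1446 bases and MMP14 4623, and the part of gene length in this ratio was not tested.

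The ratio of MMP14 to TIMP2 was steadier. It was 0.745, 0.657 and 0.703 in siNC and 0.696, 0.733 and 0.672 in siGFPT2, a spread of 1.13-fold between the highest and lowest library. TIMP1 to TIMP2, by contrast, ran from 5.86 to 12.4. MMP14 to TIMP2 averaged 0.701 ± 0.044 in siNC and 0.700 ± 0.031 in siGFPT2, while MMP2 itself was at most 0.402 FPKM. MMP14 and TIMP2 were both lowest in siNC replicate 3 and siGFPT2 replicate 2, where TIMP1 was highest. Ratios between other genes of like length were not examined, so the steadiness is not shown to be particular to this pair.

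In the urokinase system the enzyme exceeded its receptor in every library. PLAU to PLAUR was 5.22, 5.58 and 4.27 in siNC and 5.18, 4.53 and 5.19 in siGFPT2, with overlapping groups. As sums or quotients over members these ratios were given no test.

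**Figure D5:**
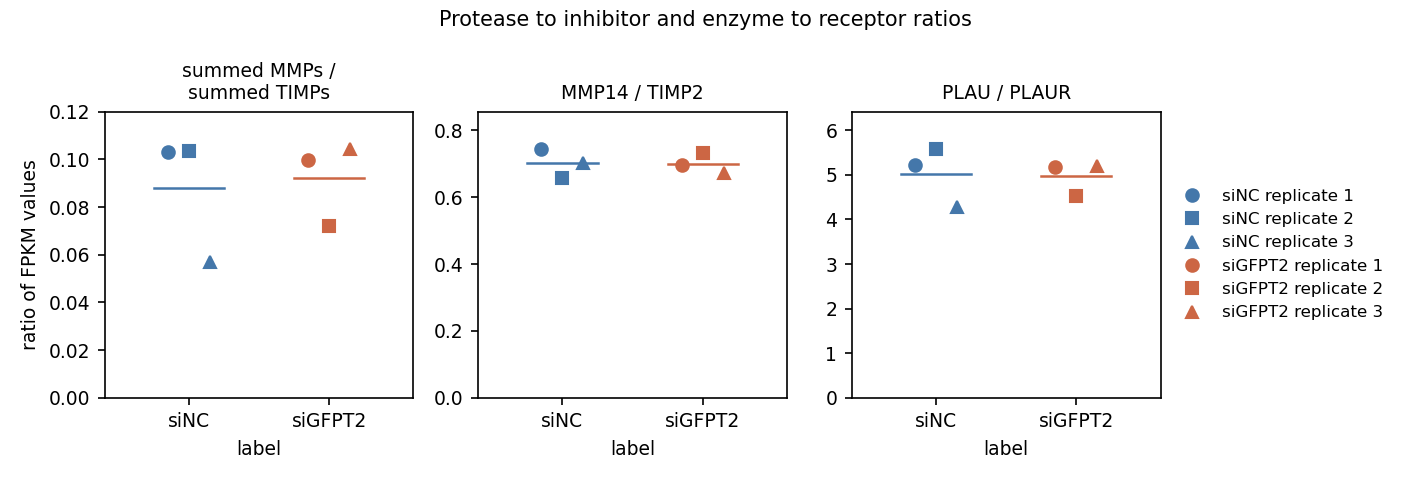
Ratios of FPKM values in each library by label, with short lines for group means and axes from 0. The groups overlap in all 3 panels; the ratio of summed MMPs to summed TIMPs is lowest in siNC replicate 3 (0.057) and siGFPT2 replicate 2 (0.0719), and MMP14 to TIMP2 stays between 0.657 and 0.745.

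By transcript level, MMP14 was not the most abundant metalloproteinase of these cells. Over 23 MMP genes, MMP15, another membrane-type enzyme, took 36.5% of the summed FPKM on average and exceeded MMP14 in 6 of 6 libraries. MMP14 took 25.5% and MMP17, a membrane enzyme with a lipid anchor, 13.5%. In all, 7 of the 23 genes had a mean of at least 1 FPKM, and MMP1, MMP2 and MMP7 were not among them.

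No gene of the wider protease network passed the test either. Of 99 genes in 5 lists, limma tested 65 and called 0, and 0 were below 0.05 before adjustment. Their fold changes were above 0 for 32 and below for 33, with a median of -0.01. Over all features tested 7922 were above 0 and 4974 below, with a median of 0.03. Groups did not overlap for 2 of the 65, near the 3.53% of all features. A count this near the background shows nothing about the 2 genes, whose values follow. HTRA1 was at 3.72, 3.53 and 3.83 FPKM in siNC and at 4.25, 4.64 and 4.14 in siGFPT2 (log2 fold change 0.23, -0.04 to 0.49). ST14 (matriptase), which can activate pro-urokinase, was at 76.3, 64.9 and 64.5 in siNC and at 62.3, 63.7 and 61.4 in siGFPT2 (-0.13, -0.39 to 0.13).

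Of the other metalloproteinases 6 of 19 were tested, with 1 fold change above 0 and 5 below. MMP15 was at 18.5 ± 1.35 FPKM in siNC and 17.6 ± 0.636 in siGFPT2 (log2 -0.07), MMP17 at 6.96 ± 0.872 and 6.44 ± 0.320 (-0.10), and MMP11, known as stromelysin-3, at 2.63 ± 0.351 and 2.46 ± 0.041 (-0.09). MMP24 stood near the filter, at 1.10 ± 0.464 and 1.00 ± 0.226 FPKM. Of the other inhibitors 14 of 19 were tested, with 11 above 0 and 3 below and a median of 0.04, near the 0.03 of all features tested. The counts above and below 0 by list were given no test. The serpin SERPINB5 (maspin) was at 4.63 ± 0.496 and 5.64 ± 0.785 FPKM (log2 0.27, -0.08 to 0.63). SERPINB8 had a log2 fold change of 0.23, SERPINA5, the protein C inhibitor, 0.09, and SPINT1, an inhibitor of matriptase, -0.10.

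Of the plasminogen system 8 of 11 genes were tested, with 4 above 0 and 4 below. F12, the Hageman factor, was at 2.28 ± 0.600 and 1.96 ± 0.174 FPKM (log2 -0.18, -0.67 to 0.30). The collagen receptor MRC2 had -0.10, the clearance receptor LRP1 -0.10 with an interval of -1.14 to 0.95, and the plasminogen receptor PLGRKT 0.09. Plasminogen itself, PLG, did not exceed 0.006 FPKM. Among partner proteases 18 of 30 were tested, with 9 above 0 and 9 below. The lysosomal cathepsins CTSS and CTSZ had 0.16 and -0.12. Among inducers and transcription factors 19 of 20 were tested, with 7 above 0 and 12 below. FOS and JUND, which form AP-1, had 0.17 and -0.15, ETS1 had 0.15 and NFKB1 0.10, all with intervals that included 0.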

How the data were processed

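Values are FPKM, deposited by the authors in 1 table with 1 column per library; the submitters' processing notes name HISAT2, featureCounts and DESeq2. Genome build, annotation and versions were not given in the sources used here. Columns were tied to samples by name. Each member was found through its Ensembl identifier. Coordinates and exon overlaps are those of GENCODE 29 (GRCh38), and promoter sequences and their coordinates those of RefSeq (GRCh38.p14).

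Fragments per gene were recovered from the steps of the FPKM values, with 1 length per feature and 1 depth per library, to a tolerance of 0.0001 reads. The GENCODE 29 exon length gave whole reads for 53.9% of the 36981 features above 0. The smallest length that did so was taken for the rest, which builds in the total of 100.0% and can understate reads. Of the members, TIMP2 and PLAUR had the GENCODE length and the other 7 a fitted one. Recovered reads summed to 99.77% to 99.81% of the depth.

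The 12896 features averaging 1 FPKM or more entered limma 3.58.1 (R 4.3.3) as log2(FPKM + 0.1), with a mean-variance trend and group as the only term. Tests were two-sided. Because of the pseudocount, fold changes of low genes are understated. Benjamini-Hochberg adjustment covered every feature in the fit, at a threshold of 0.05. The fit code was also run on simulated counts with known changes, which lacked the shift between libraries seen here. The 16 alternative fits cover pseudocounts of 1 and 0.01, the filter, scaling, a replicate block, left-out libraries, limma-voom and a length covariate.

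The genes named are the members, GFPT2, up to 4 genes with the smallest p of each of the 5 lists, the nearest profiles of the 2 most variable tested members, and genes of the fixed ratios and marker lists. MMP2's accompanying markers, C10orf55 and PLG were chosen after their values were seen. A further planned ratio is not reported here. The members and lists were chosen with earlier results of these data known.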

Additional observations from a re-analysis of the deposited data

How the results depend on the processing

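Over the 16 alternative fits, limma or limma-voom called 0 features and 0 members, and the smallest unadjusted p of a member was 0.159, for TIMP1 with the length slope as a covariate. Fold changes this close to 0 changed sign easily. With median centring, which moved the median fold change by -0.05, the log2 fold change was -0.0189 for MMP14, -0.0173 for TIMP2, -0.0444 for PLAU and -0.0336 for PLAUR. Without both siNC replicate 3 and siGFPT2 replicate 2 it was -0.03 for MMP14, 0.0034 for TIMP1 and -0.02 for PLAU. With 1 library left out it ran from -0.0591 to 0.11 for MMP14, from -0.23 to 0.16 for TIMP1, from -0.0601 to 0.10 for TIMP2, from -0.0262 to 0.0283 for PLAU, from -0.0865 to 0.14 for PLAUR and from -0.21 to -0.06 for GFPT2. The log2 differences of the ratios ran from -0.19 to 0.27 for summed MMPs over summed TIMPs, from -0.05 to 0.04 for MMP14 over TIMP2 and from -0.12 to 0.07 for PLAU over PLAUR. The count of features at an unadjusted p under 0.05 was 84, and between 16 with a minimum mean of 5 FPKM and 754 with no filter on low values. With no filter all 9 members entered the fit and 0 were called; MMP2 had 0.16 (-0.67 to 0.99), MMP7 0.14 (-0.63 to 0.91), TIMP3 -0.06 (-0.78 to 0.66) and MMP1 -0.02 (-0.49 to 0.45).

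Deviations from the group means of same-numbered libraries correlated, across features, at 0.473, -0.719 and -0.57. The highest correlation, 0.792, joined siNC replicate 3 and siGFPT2 replicate 2, which carry different numbers. The shift of these 2 libraries enters every group mean, so the correlations cannot decide whether the replicate numbers pair the samples. With the replicate number as a block limma called 0 features and 0 members, with 63 features at an unadjusted p under 0.05.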

Other observations

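In siGFPT2 replicate 1, 4 features had at least 30 fragments and more than 5 times those of any other library, a search made after the values were seen. Besides COL3A1 and CD163 these were the immunoglobulin genes IGHG1, with 120 fragments against 2 to 8 elsewhere, and IGKC, with 56 against 0 to 2. The same search found 2 features in siNC replicate 2, 2 in siGFPT2 replicate 3 and 0 in the other 3 libraries. In siNC replicate 2 they were ALDH3A1, with 149 fragments against 1 to 18, and ENSG00000249839, with 119 against 7 to 21. In siGFPT2 replicate 3 these were the matrix genes TNR, with 106 fragments against 4 to 13, and COL20A1, with 66 against 6 to 11.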
